A study of Homo sapiens with 20 samples.

Results

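OR51E1 and OR51E2 are neighbouring olfactory receptor genes on chromosome 11 that are known for their expression in prostate epithelium. They were chosen by their symbols and make up 2 of the 57773 genes counted in each of the 2 count tables of the series. Both were singled out because their read counts were higher after EHMT1 silencing, so their siRNA values are given as a description with no test. The values in the stable lines had no part in that choice.

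Transcripts were counted by RNA-seq in LNCaP, an androgen-sensitive line derived from human prostate adenocarcinoma. In the siRNA experiment, EHMT1 was silenced with a pool of siRNAs (siEHMT1) at 20 nM and cells were collected after 2 days, beside cells given a nontarget pool (siNTC), with 2 samples each. EHMT1 is a lysine methyltransferase that, with its partner EHMT2, places repressive methyl groups on histone H3 lysine 9. In the stable lines, LNCaP cells carried a lentiviral, doxycycline-inducible and V5-tagged EHMT1, either wild-type (WT) or with arginine in place of one lysine (K450R), its neighbour (K451R) or both (K450RK451R). Each of these 4 lines was given vehicle (Veh) or, for 2 days, 0.25 µg/mL doxycycline (Dox). The labels give no duration for vehicle. All 4 lines keep their own EHMT1 gene and were selected with puromycin. Whether a line is 1 clone or a pool is not given in the sources used here.

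Olfactory receptors are G protein-coupled receptors, each encoded in a single coding exon, and they form the largest receptor family of the human genome. In the nose, a bound odorant activates the G protein subunit encoded by GNAL, which stimulates the adenylyl cyclase ADCY3, and the resulting cyclic AMP opens a channel containing CNGA2. OR51E1 and OR51E2 are also made outside the nose, in prostate among other tissues. Both respond to fatty acids and related small carboxylic acids, OR51E2 to the short-chain acids acetate and propionate. They are also called PSGR2 and PSGR, for prostate-specific G protein-coupled receptor.

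OR51E1 (ENSG00000180785) occupies chr11:4664650-4676718 on the plus strand and OR51E2 (ENSG00000167332) chr11:4701401-4719084 on the minus strand of GRCh37, in GENCODE release 44 annotation. The genes point toward each other across a gap of 24682 bases, which holds the pseudogene OR51A9P. Each coding sequence lies in 1 exon, with 954 bases in OR51E1 and 960 in OR51E2, and most of the exonic sequence of either gene is therefore untranslated. The coding sequences are 64.4% identical over 978 aligned positions, the longest identical run has 17 bases, and no stretch of 51 bases, the length of the reads, is shared. The untranslated sequences of the 2 genes were not aligned with each other. Within the coding alignment, the most similar 51 bases differ at 3 positions, which are written in capitals below. They start at coding base 352 of OR51E1 (chr11:4674108-4674158, plus strand) and at coding base 340 of OR51E2 (chr11:4703552-4703602, minus strand), and all 3 differences are at the third base of a codon.
OR51E1: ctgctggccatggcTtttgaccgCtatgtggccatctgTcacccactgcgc
OR51E2: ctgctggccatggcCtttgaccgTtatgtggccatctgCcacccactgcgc

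A search of the exons against GRCh37, which starts from long exact matches, gave no hit elsewhere for OR51E1. It did not find the similar OR51E2 stretch above, so less exact copies may have been missed. For OR51E2, 211 exonic bases, or 7.26%, had a copy elsewhere that was at least 96% identical over a read length. The first exon of OR51E2 also overlaps OR51C1P by 201 bases, and OR51C1P received 3 reads in the siRNA samples and 0 in the stable lines. The strand setting used for counting is not given in the sources used here.

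The targeted gene was examined first. EHMT1 averaged 85.7 ± 2.94 CPM (reads scaled to the size of the library, SD, n = 2) in siNTC and 30.0 ± 1.07 CPM in siEHMT1, a log2 fold change of -1.51. In the stable lines it rose with Dox by 3.23 on the log2 scale (edgeR, adjusted p = 1.02e-23), with 2.90 to 3.38 in single lines. Library totals were 5593400 to 12438006 reads in the siRNA samples and 8436791 to 12407739 in the 8 stable-line conditions. The 2 deposited columns of each stable-line condition differed by no more than sampling noise (chi-square per degree of freedom 0.995 to 1.02) and were added as 1 sample. The siRNA samples differed by more than that, with 61.6 in siNTC and 13.4 in siEHMT1. Nothing says that the siRNA samples came from separate cultures.

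The luminal identity of the cells was checked with 12 prostate markers, among them KLK3, KLK2 and FOLH1, and all 12 were expressed, at 46.9 to 8322 CPM. The defining markers of leukocytes (PTPRC) and basal cells (KRT5 and TP63) had 0 reads in every library. Of 12 markers of other cell types, 11 were found in the tables. Their summed level was 28.9 and 31.1 CPM in siNTC and 41.1 and 42.2 CPM in siEHMT1, so it moved with the groups. That difference came mainly from VWF, an endothelial marker with 8.48 ± 1.10 CPM in siNTC and 15.8 ± 0.228 CPM in siEHMT1 (edgeR, adjusted p = 0.0741), and from ACTA2, a smooth muscle actin with 3.72 ± 0.0501 and 7.60 ± 0.919 CPM (adjusted p = 0.166). Their part in the results below was not tested. In bulk RNA, more cells with a transcript and more transcript per cell cannot be told apart.

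OR51E1 had 21 and 12 reads in siNTC, whereas siEHMT1 gave 186 and 209 reads. Scaled to library size, these were 1.98 and 2.37 CPM against 19.4 and 16.7 CPM. Both siEHMT1 samples therefore stood far above both siNTC samples. The 95% Poisson intervals of single libraries reached at most 4.14 CPM in siNTC and began no lower than 14.5 CPM in siEHMT1. These intervals cover counting error only, and the siRNA samples differed by more than that. They are no test, since this contrast chose the pair. The log2 fold change was 3.07 (SE 0.24), or 8.41-fold, which placed OR51E1 at rank 2 of 14532 genes from the highest. Paired by number, the samples gave 3.29 and 2.81.

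OR51E2, the neighbour, was also higher, but by far less. It had 30 and 14 reads in siNTC and 54 and 59 reads in siEHMT1, or 2.83 and 2.77 CPM against 5.64 and 4.71 CPM. The groups did not overlap in their values, although the Poisson intervals of single libraries did (up to 4.64 CPM in siNTC, from 3.59 CPM in siEHMT1). The log2 fold change was 0.87 (SE 0.31), or 1.83-fold, rank 242 of 14532. Of all genes tested, 19.9% had both siEHMT1 samples above both siNTC samples and 19.8% had both below, so the lack of overlap alone sets neither receptor apart. No member is counted here as called, and 0.0619% of the genes tested rose at an adjusted p under 0.05 (edgeR).

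**Figure D1:**
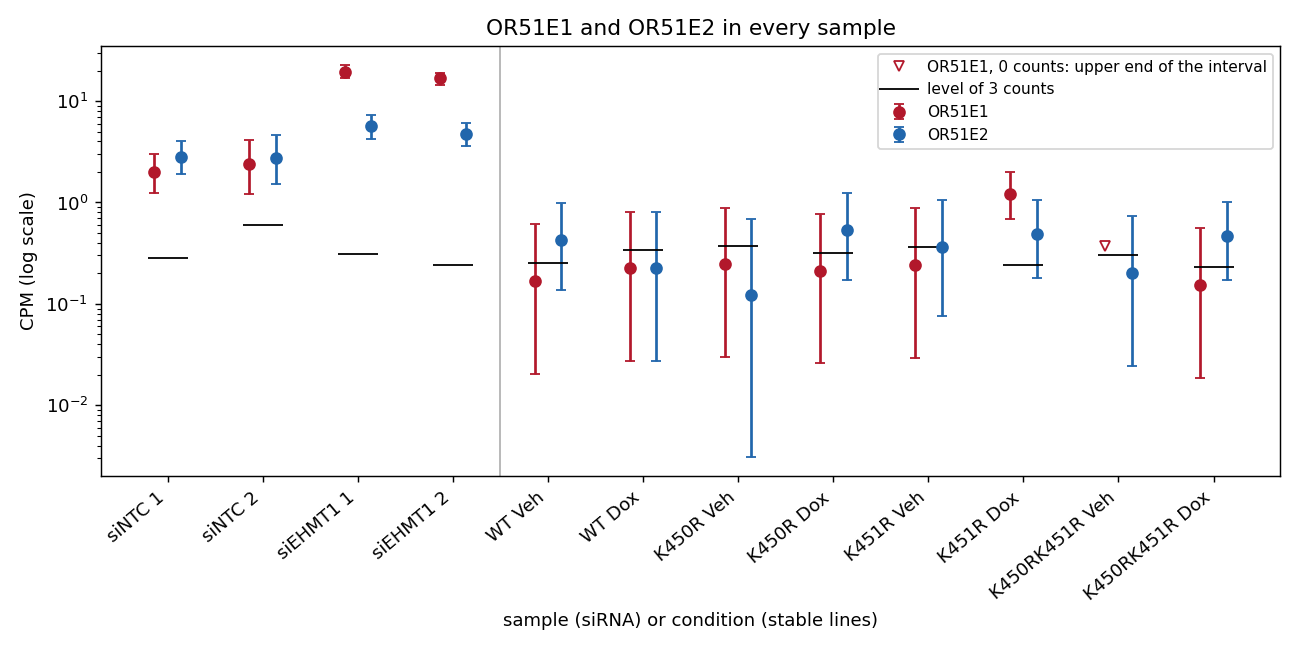
Level of OR51E1 (red) and OR51E2 (blue) in CPM on a log axis, for each of the 4 siRNA samples and each of the 8 stable-line conditions, with exact 95% Poisson intervals that cover counting error only. Horizontal marks are the level of 3 counts in that library, and an open triangle is the upper end of the interval for a count of 0. OR51E1 stands at 19.4 and 16.7 CPM in siEHMT1, and in the stable lines only the K451R Dox condition lies above the mark for OR51E1.

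Because the 2 genes differed in how much higher they were, the make-up of their combined reads differed as well. OR51E1 took 41.2% and 46.2% of the pair's reads in siNTC, and in siEHMT1 it took 77.5% and 78.0%. Pooled, its share was 42.9% of 77 reads (95% Wilson interval 32.4 to 54.0) in siNTC and 77.8% of 508 reads (73.9 to 81.2) in siEHMT1. The Wilson intervals too cover counting error only and are no test of this contrast. Per kilobase of exon, OR51E1 had the lower level in siNTC, at 0.584 CPM per kb against 0.967 for OR51E2. In siEHMT1 the order was the opposite, at 4.95 CPM per kb for OR51E1 and 1.76 for OR51E2. The exon lengths behind these levels, 3612 bases for OR51E1 and 2907 bases for OR51E2, count every annotated exon, and which transcripts were used was not measured.

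**Figure D2:**
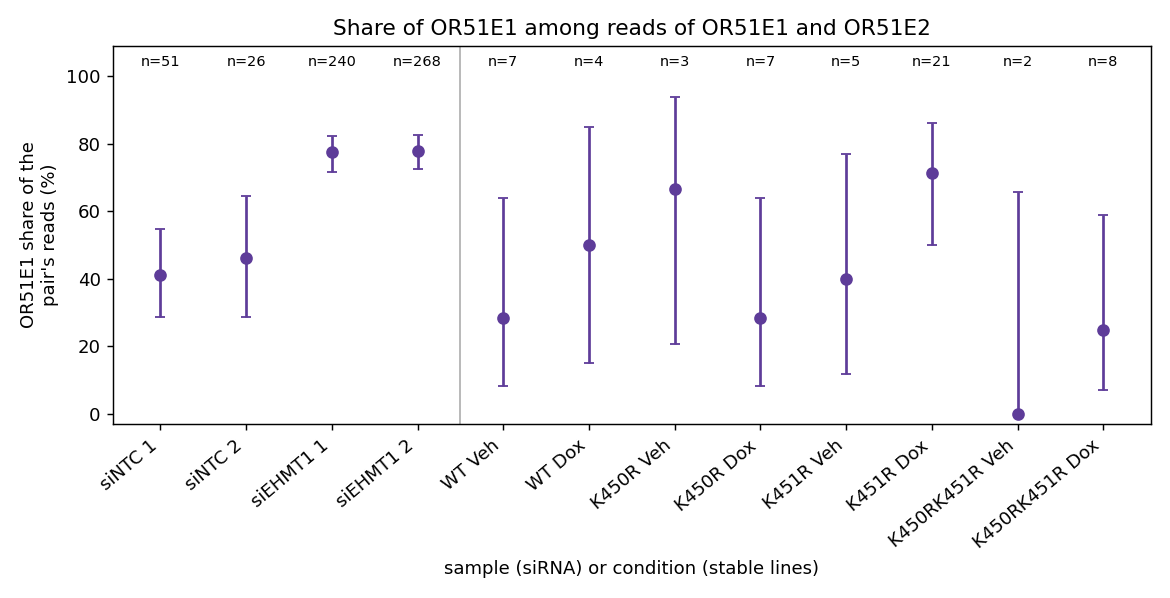
Share of OR51E1 among the reads of OR51E1 and OR51E2 together, in percent, for each siRNA sample and stable-line condition, with 95% Wilson intervals and the number of reads (n) above each point. The share is 77.5% and 78.0% in siEHMT1, against 41.2% and 46.2% in siNTC, and the stable-line conditions rest on 2 to 21 reads each.

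The region around the pair was then examined for other genes that followed. Within 500 kb on either side, 72 other genes are annotated and 59 of them are in the tables, 48 with olfactory receptor names. Of the 59, 49 had no read in any library, including MMP26, the matrix metalloproteinase gene next to OR51E2. The pair thus lies among genes that were mostly silent in LNCaP cells. Of the 10 with a read, 3 passed the low-count filter in the siRNA samples, and none of these passed an adjusted p under 0.05 (edgeR), against 0.131% of all genes tested in either direction. TRIM68 had an unadjusted p under 0.05, as did 1388 of the 14532 genes, and DESeq2 called none but gave 2 of the 3 no adjusted p.

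TRIM68, which encodes a ubiquitin ligase, lies at chr11:4619902-4629461, and its start is at -44.7 kb from that of OR51E1. It had 64.7 and 61.7 CPM in siNTC and 88.3 and 87.8 CPM in siEHMT1. Both siEHMT1 samples were thus above both siNTC samples, as in 19.9% of all genes tested. The log2 fold change of TRIM68 was 0.48 (SE 0.10, edgeR adjusted p = 0.0628), below that of OR51E1, and its difference from OR51E2 was not tested. TRIM21, which encodes a ubiquitin ligase that binds antibodies in the cytosol, has its start at -259 kb from that of OR51E1 and gave overlapping groups (0.10, SE 0.16, adjusted p = 0.891).

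OR51A9P, the pseudogene between the receptors (chr11:4682083-4682993, minus strand), had 3 and 4 reads in siNTC and 10 and 14 in siEHMT1. Pooled, this was 0.447 CPM (interval 0.180 to 0.922) and 1.09 CPM (0.696 to 1.62), with a log2 fold change of 1.22 (SE 0.69, edgeR adjusted p = 0.600). At this depth the error of its change covers that of OR51E2. The 7 other neighbours with a read stayed under the filter.

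**Figure D3:**
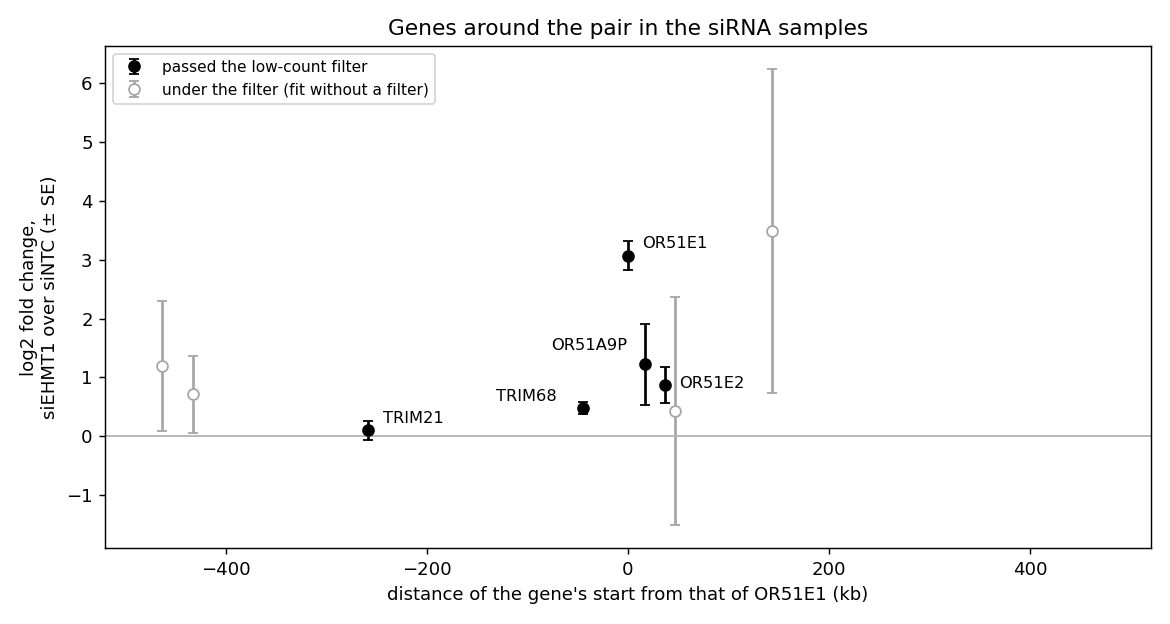
Log2 fold change of siEHMT1 over siNTC (± SE) for the genes within 500 kb of the pair that had a read in the siRNA samples, against the distance of each gene's start from that of OR51E1 in kb. Filled points passed the low-count filter, with OR51E1 highest at 3.07, and open points rest on few reads and come from the fit without a filter.

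The tables hold 845 rows with olfactory receptor symbols, and the pair was compared with the rest of this family. In siNTC, 46 of the 845 rows had a read and the pair took 77 of 299 reads, or 25.8% (21.1 to 31.0). In siEHMT1, 52 rows had a read and the pair took 508 of 877 reads, or 57.9% (54.6 to 61.2). These intervals cover counting error only and are no test, since this contrast chose the pair. The other rows together had 14.2 CPM in siNTC and 16.7 CPM in siEHMT1 and the samples of the 2 groups overlapped. Of the other rows, 5 passed the filter and none had an adjusted p under 0.05 (edgeR) or an unadjusted p under 0.05. DESeq2 gave these 5 no adjusted p.

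The only other olfactory receptor row with more siRNA reads than OR51E2 was OR7E38P, a pseudogene with 49 and 22 reads in siNTC and 58 and 73 in siEHMT1 (log2 fold change 0.40, edgeR adjusted p = 0.668). OR5B2, the most read of the other intact receptor genes, had 19 and 7 reads in siNTC and 12 and 25 in siEHMT1, a log2 fold change of 0.01 (adjusted p = 0.997). The pseudogenes OR7E14P (-0.50, adjusted p = 0.820) and OR8G3P (-0.41, adjusted p = 0.869) gave overlapping groups. OR51A9P, described above, completed the 5. Like OR7E38P, it had both siEHMT1 samples above both siNTC samples, as did 19.9% of all genes tested.

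**Figure D4:**
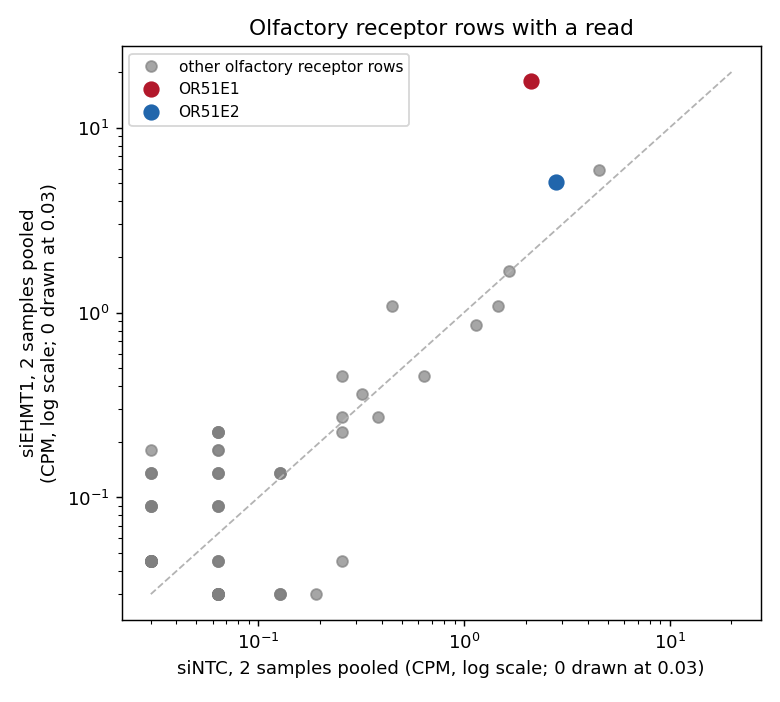
Pooled level of each olfactory receptor row with a read in the siRNA samples, in CPM on log axes, in siNTC (horizontal) and siEHMT1 (vertical), with rows at 0 drawn at 0.03 and a dashed line of equal levels. OR51E1 (red) lies far above the line at 2.11 and 17.9 CPM, OR51E2 (blue) less far at 2.81 and 5.11 CPM, and the other rows (grey) scatter around the line.

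The genes that carry the signal of an olfactory receptor in the nose were only partly expressed. Of 28 genes of odorant signalling, 9 had no read in the siRNA samples, including the channel subunit CNGA2, the receptor chaperones RTP1 and RTP2, the olfactory marker OMP and the transcription factor EBF1. GNAL was low, at 1.25 ± 0.0967 CPM in siNTC and 1.52 ± 0.226 CPM in siEHMT1. Its relative GNAS, the widely expressed stimulatory subunit, was at 817 ± 35.1 and 789 ± 8.17 CPM. ADCY3 was at 33.4 ± 1.74 and 32.7 ± 3.66 CPM. GNB1, a G protein beta subunit, was at 302 ± 2.07 and 286 ± 5.49 CPM, and LDB1, a cofactor of receptor gene choice, at 86.1 ± 3.47 and 86.3 ± 1.27 CPM. Of the 15 genes of the list that were tested, none passed an adjusted p or an unadjusted p under 0.05 (edgeR) and none was called by DESeq2, which gave 9 of them no adjusted p. Their log2 fold changes ran from -0.21 to 0.55 around a median of 0.0034, beside -0.0021 for all genes tested.

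Effectors that have been reported downstream of the 2 receptors, such as kinases and the calcium channel TRPV6, did not pass the test either. Of 11, 10 were tested, with log2 fold changes from -0.16 to 0.21 and a median of 0.018, and none passed an adjusted or unadjusted p under 0.05 (edgeR) or was called by DESeq2, which gave 3 of them no adjusted p. PIK3CG, a phosphoinositide 3-kinase subunit, had no read in any library. The most expressed were NDRG1, a stress-responsive gene (237 ± 43.8 and 242 ± 4.22 CPM), and the kinase AKT1 (244 ± 12.0 and 254 ± 2.42 CPM).

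Other receptors for fatty acids and hydroxy acids were scarce. Of 10, 5 had no read in the siRNA samples and 1, FFAR2, a receptor for short-chain acids, passed the filter. FFAR2 was at 1.89 ± 0.675 CPM in siNTC and 2.34 ± 1.09 CPM in siEHMT1 (log2 fold change 0.43, edgeR adjusted p = 0.811, unadjusted p above 0.05, no adjusted p from DESeq2). The next in level, HCAR2 and HCAR1, had 3 and 4 reads in all 4 siRNA samples. In siEHMT1, part of the contrast that chose the pair, OR51E1 and OR51E2 had more reads than any gene of this list. In siNTC, FFAR2 was near the level of OR51E1 (2.18 ± 0.274 CPM). In the 8 stable-line conditions FFAR2 had more reads than either receptor, with 119 against 27 for OR51E1 and 30 for OR51E2.

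In the stable lines both receptors were near the limit of detection. OR51E1 had 2 reads in WT Veh, WT Dox, K450R Veh, K450R Dox, K451R Veh and K450RK451R Dox, 0 reads in K450RK451R Veh, and 15 reads in K451R Dox. In 7 of the 8 conditions it was therefore at or under 3 counts, and for the count of 0 the level of 3 counts is 0.304 CPM and the upper end of the exact 95% Poisson interval 0.374 CPM. The 15 reads of K451R Dox were split as 8 and 7 between its 2 columns. Relative to the 2 reads of K451R Veh, its CPM was 5.02-fold higher, with a counting interval of 1.17 to 45.2 and no replicate check.

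OR51E2 had 5 reads in WT Veh and 2 in WT Dox. K450R gave 1 and 5 reads, K451R gave 3 and 6, and the double mutant gave 2 and 6, with Veh first. Its Dox to Veh ratio was below 1 in WT (0.534, interval 0.0509 to 3.26) and above 1 in the other lines (4.32 in K450R, 1.34 in K451R and 2.29 in K450RK451R), and all of these intervals include 1. Neither gene passed the low-count filter, so both were tested in a fit without it, with the 4 lines as replicates of the Dox effect.

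The log2 fold change of Dox over Veh was 1.41 (SE 0.97, edgeR adjusted p = 0.867) for OR51E1 and 0.57 (SE 0.84, adjusted p = 0.898) for OR51E2, each higher in 3 of 4 lines, although outside K451R the direction of OR51E1 rests on 0 to 2 reads. Without the K451R line, the value for OR51E1 was 0.56, so K451R set most of it. Neither gene was called by edgeR, DESeq2 gave neither an adjusted p, and the unadjusted p was 0.150 and 0.503, while 1.23% of the 28129 genes in this fit were called in either direction. The levels of the 4 lines spanned 3.03 on the log2 scale for OR51E1 (adjusted p = 0.721) and 0.31 for OR51E2 (adjusted p = 0.997), where 2% of genes were called. With standard errors of this size, a 2-fold change of either gene was not detectable at this depth.

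OR51A9P, the pseudogene between the receptors, had 2, 3, 4 and 10 reads in Veh and 10, 5, 17 and 26 in Dox, in the order WT, K450R, K451R and K450RK451R. It was under the low-count filter and was tested in the fit without it. It was higher with Dox in 4 of 4 lines (log2 fold change 1.32, SE 0.50, edgeR adjusted p = 0.268, unadjusted p = 0.00986). Of the genes that passed the filter, 10.7% were higher in all 4 lines, and 2032 of 14105 had an unadjusted p under 0.05 for Dox. TRIM68 gave 0.22 (SE 0.09, adjusted p = 0.249) and was higher in 3 of 4 lines, and TRIM21 gave -0.15 (adjusted p = 0.572). Among the 2 neighbours that passed the filter here, none was called for Dox or for a difference among lines, beside 2.11% and 3.05% of all genes, DESeq2 called none, and TRIM68 had an unadjusted p under 0.05 in both.

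**Figure D5:**
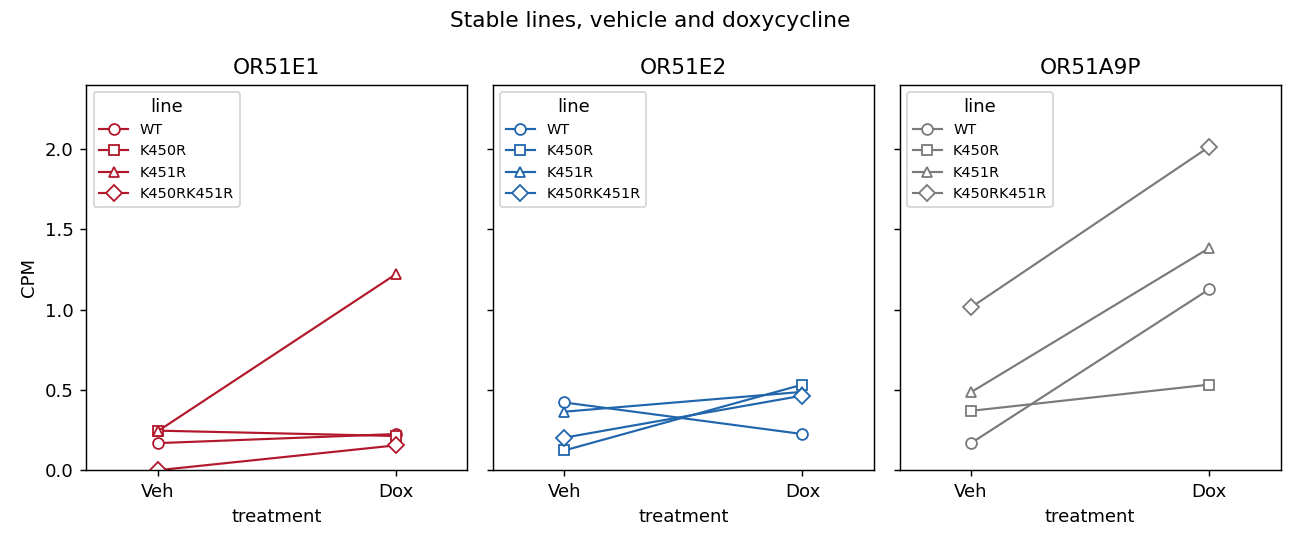
Level in CPM of OR51E1, OR51E2 and the pseudogene OR51A9P between them in each of the 4 stable lines, with a line joining vehicle (Veh) to doxycycline (Dox). OR51E1 is at 1.22 CPM in K451R Dox and at most 0.247 CPM in the other conditions, OR51E2 lies between 0.123 and 0.533 CPM, and OR51A9P is higher with Dox in each line.

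The signalling lists gave no call in the stable lines at an adjusted p under 0.05, for Dox or among lines, by edgeR or by DESeq2, which left part of the low genes without an adjusted p. Of 16 tested genes of odorant signalling, ARRB1 and RIC8A had an unadjusted p under 0.05 for Dox and 3 had one among lines, where 2032 and 2149 of all 14105 genes had one. Of 10 effectors, TRPV6 did for Dox (log2 fold change -0.26, SE 0.07, adjusted p = 0.0594) and 2 did among lines. For Dox, so did FFAR2 of the fatty acid receptors (0.87, SE 0.40, adjusted p = 0.302). GNAL was at 5.34 CPM on average in Veh and 3.96 CPM in Dox (adjusted p = 0.368). For comparison, 5 of the 12 luminal markers were called higher with Dox (edgeR), among them FOXA1 by 0.36 (adjusted p = 4.18e-04). DESeq2 called 4 of the 12, and edgeR called 2.11% of all genes in either direction. KRT8, KLK4, KRT18 and KLK2 of the same list were lower with Dox, by -0.20 to -0.11, without a call.

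Over all 10 conditions, the order of the levels was led by siEHMT1 and siNTC for both genes. Pooled, OR51E1 was at 17.9 CPM (95% Poisson interval 16.2 to 19.7) in siEHMT1, 2.11 CPM (1.45 to 2.96) in siNTC and 1.22 CPM (0.683 to 2.01) in K451R Dox, and the latter neighbours in this order overlapped. The other 7 conditions lay between 0 and 0.247 CPM with overlapping intervals. OR51E2 was at 5.11 CPM (4.21 to 6.15) in siEHMT1 and 2.81 CPM (2.04 to 3.78) in siNTC, followed by K450R Dox at 0.533 CPM (0.173 to 1.24), and no 2 neighbouring conditions of the stable lines in the order could be separated.

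The siNTC samples also stood above the stable lines treated with vehicle, at 2.11 against 0.158 CPM (0.0579 to 0.343) for OR51E1 and 2.81 against 0.289 CPM (0.144 to 0.517) for OR51E2. The 2 tables were made and normalized separately, so these levels are set side by side with no test, and experiment, culture and lentiviral line cannot be told apart. TRIM68 was at 63.7 CPM in siNTC and 30.8 CPM in Veh, pooled. OR51A9P had 0.447 and 0.499 CPM, with overlapping intervals. Other olfactory receptor rows summed to 8.73 CPM over the 8 conditions, where the pair held 7.42% of all 768 olfactory receptor reads (5.77 to 9.50).

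The genes whose profile across the 8 stable-line conditions was most like that of each receptor differed between the 2. For OR51E1 they were TSNARE1 (Pearson's r = 0.972), PTPRR (0.948), CBR4 (0.936), MR1 (0.934) and AIM1 (0.931), and OR51E1 itself stood above 3 counts in K451R Dox alone. For OR51E2 they were TRIM5 (0.981), TAF4 (0.961), GHR (0.946), LEPROTL1 (0.943) and RP11-485G4.2 (0.935). They are the highest of 12767 genes over 8 points that share library and depth, and the receptor's side of each is at most 15 reads, so these values are a description. None of the 10 genes passed an adjusted p under 0.05 (edgeR) in the siRNA samples or for Dox, and their siRNA log2 fold changes lay between -0.19 and 0.41.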

How the data were processed

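The authors deposited 2 tables of raw read counts per Ensembl gene, one for the siRNA samples and one for the stable lines. Total RNA libraries came from a stranded kit and were read from 1 end over 51 nt. The submitters' processing notes name FastQC 0.11.9, STAR 2.7.2, featureCounts 1.6.4 and hg19, while the annotation release, the strand setting and the handling of multiply mapped reads are not given in the sources used here. Genes with shared or overlapping sequence could therefore exchange reads.

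The 16 stable-line columns were summed to 8 conditions. Counts were filtered with edgeR's default filter, scaled by TMM and tested with the quasi-likelihood method of edgeR 4.0.16 (current method, in R 4.3.3), with the siRNA groups alone and, for the stable lines, with line and treatment as terms. Both members were under the filter in the stable lines, where the fit without a filter was used. P-values were adjusted by Benjamini-Hochberg over all genes of a fit, and measure only the spread between these samples, which may be technical. CPM use TMM-scaled totals. Intervals and the floor of 3 counts cover counting error only. DESeq2 1.42.0 and other settings were alternatives. Sequences were read from GRCh37 with samtools 1.23.1 and compared with BLAST+ 2.17.0+. On simulated counts, edgeR recovered 98.4% of 189 changed genes in the siRNA design (14480 genes, 11 unchanged genes called) and 100% of 168 for Dox (14119 genes, 13 called), all changed by 2 on the log2 scale. The simulated spread was the same for every gene and was not estimated from these data. Only genes that passed the filter were covered, so these shares do not give the power of the real comparisons.

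The members and gene lists were chosen with earlier results of these data known. Named genes are the members, EHMT1, genes within 500 kb that passed a filter, listed genes with an adjusted p under 0.05 and the 3 most expressed of each list, other olfactory receptor rows that passed a filter, and the 5 genes most correlated with each member among those with a mean of at least 20 counts per condition. MMP26, OR51C1P, VWF, ACTA2, TRPV6, ARRB1, RIC8A and listed genes at or near 0 or named for their role were added after their values were seen. PECAM1 was not matched to a row. Values of some listed genes are not reported here.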

Additional observations from a re-analysis of the deposited data

How the results depend on the processing

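In the siRNA samples the log2 fold change of both receptors kept its direction under each setting run. Leaving out 1 sample gave 2.92 to 3.17 for OR51E1 and 0.74 to 1.00 for OR51E2, and leaving out 2 pseudogenes that resemble ribosomal RNA, a setting chosen after seeing the data, gave 3.08 and 0.87. The replicate numbers were not shown to pair the samples: same-numbered deviations had r = -0.0052 over 14532 genes in the only 2 pairs. With a replicate block the receptors gave 3.08 and 0.89, and 56 genes were called higher and 62 lower, against 9 and 10 without it. DESeq2 called 2 higher, upper-quartile scaling 5 lower and no filter 4 lower, and leaving out a sample gave 20 to 41 higher and 18 to 82 lower. The cause of these shifts was not tested.

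In the stable lines, Dox called 85 genes higher and 213 lower, and 430 differed among lines. With the columns kept apart and a replicate block, the counts were 873, 1027 and 3168. In that setting OR51E1 had an adjusted p of 0.0426 among lines (edgeR, range 2.89), against 0.721. The columns of a condition differed by no more than sampling noise, so this setting tests the reads of these libraries and not a spread between replicates. OR51E1 stood above 3 counts in K451R Dox alone. DESeq2 gave counts of 20, 115 and 239. Leaving out a line gave 20 to 181, 94 to 320 and 252 to 421. For the receptors, leaving out a line gave Dox log2 fold changes of 0.56 to 1.81 for OR51E1 and 0.27 to 1.06 for OR51E2, the lowest for OR51E1 without K451R. Both receptors had 0 to 15 reads per condition here, at totals of 8436791 to 12407739 reads, which limits the precision of their values.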
